A study of Homo sapiens with 12 samples.

Results

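The 9 genes of MHC class I antigen presentation described here are HLA-B, HLA-C, HLA-E, B2M, TAP1, TAP2, TAPBP, PSMB9 and NLRC5. They were chosen by name, for their known roles in the pathway, from the 58174 genes of the deposited table. Earlier results of these data were known when the choice was made. All 9 passed the filter on low counts, which left 20612 genes to test. RNA was sequenced from the human cell line NCI-H520 (H520), which was established from a squamous carcinoma of the lung, with 3 libraries in each of 4 groups treated for 72 h. The groups were control cells, cells given 1 µM BLU9931 (an inhibitor of the receptor tyrosine kinase FGFR4), cells given 1 µM palbociclib (an inhibitor of the kinases CDK4 and CDK6), and cells given both drugs at those doses. All groups are the same line, and the treatment of the control cells, such as a vehicle, is not stated in the labels. Nor is it stated whether replicate libraries were made from separate cultures. The p-values then measure only the spread between these libraries, which may be technical.

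MHC class I molecules show peptides from inside the cell to CD8 T cells. The proteasome cuts proteins into peptides, and interferon-induced subunits such as PSMB9 change which bonds it cuts. The TAP1 and TAP2 heterodimer pumps the peptides into the endoplasmic reticulum. Tapasin (TAPBP) holds the transporter beside a heavy chain (HLA-B, HLA-C or HLA-E) paired with beta-2 microglobulin (B2M) while a peptide is loaded. NLRC5 is the transactivator of this gene set, acting with proteins that bind conserved promoter boxes, and many tumours show low levels of parts of the pathway.

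The libraries held from 21.7 M to 35.8 M counts (M, mega). General epithelial markers were present, with EPCAM, KRT8, KRT18, KRT19 and CDH1 summing to between 1073 and 1212 CPM (counts divided by the TMM-scaled library size in units of 1 M counts). Of 7 squamous and basal markers, SOX2 was at 476 to 592 CPM. The other 6, which were TP63, KRT5, KRT6A, KRT14, DSG3 and PKP1, had means under 1 CPM, so the squamous label rests on 1 of the 7 markers. In 2 libraries, genes rich in GC lay below their group means: Spearman's rho across genes between GC content and the deviation was -0.66 in control 1 and -0.72 in palbociclib 3, and -0.24 to 0.59 in the other libraries. Genes are not independent replicates, so these values describe the libraries. The heavy chain and TAPBP rows are rich in GC, at 59.7% for HLA-B, 61.6% for HLA-C, 61.5% for HLA-E and 62.1% for TAPBP, against a median of 49.7% over the genes tested. For that reason each change below was also computed with a GC adjustment in every library.

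Transcripts of the classical heavy chain HLA-C and of HLA-E, the non-classical heavy chain that the inhibitory receptor NKG2A on NK and T cells reads, rose under palbociclib and under the combination. HLA-B passed the test under the combination, and TAPBP rose slightly under both palbociclib and the combination. TAP2 fell in these same groups. With the GC adjustment, HLA-C no longer passed under the combination and TAPBP passed in neither group. B2M, TAP1 and PSMB9 passed the test in none of the 6 comparisons.

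Set against all genes, 4 of the 9 members were called under palbociclib, where 20.6% of the genes tested were in either direction. Of these 4, 3 were higher and 1 lower, and of the 20612 genes 2065 were higher and 2171 lower. Under the combination 4 were called higher and 1 lower, against 15.4% and 16.3% of all genes. The member median under palbociclib was a log2 change of -0.02, beside 0.01 over all genes, and under the combination it was 0.10 beside 0.03. Neither median held its sign: under palbociclib it was 0.12 with the GC adjustment, 0.43 on TPM and 0.35 without control 1, and under the combination 0.04 with the GC adjustment and -0.06 without control 1. No shift of the members as a set is read from them. HLA-C, HLA-E and HLA-B lay above the medians over all genes in both comparisons, and TAP2 below them. Under BLU9931 0 members were called by edgeR, where 0.180% of all genes were. An unadjusted p under 0.05 was found for 5 members, beside 3347 of the 20612 genes tested. DESeq2 called 3 members, which were HLA-B, HLA-C and HLA-E, beside 590 of all genes. The member median there was 0.34 beside 0.00, but 0.00 with the GC adjustment and 0.15 on TPM. In CPM without that adjustment, 5 of 9 members (HLA-B, HLA-C, HLA-E, TAPBP and NLRC5) were higher in all 3 BLU9931 libraries than in any control library, a pattern seen in 15.3% of all genes. Scaling by library totals in place of TMM moved the median of all genes by less than 0.1 in each comparison and left every call of a member as it was. Without control 1 and palbociclib 3 together, the libraries whose values fell with GC content, 4 members passed under palbociclib and 5 under the combination, as with all libraries.

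**Figure D1:**
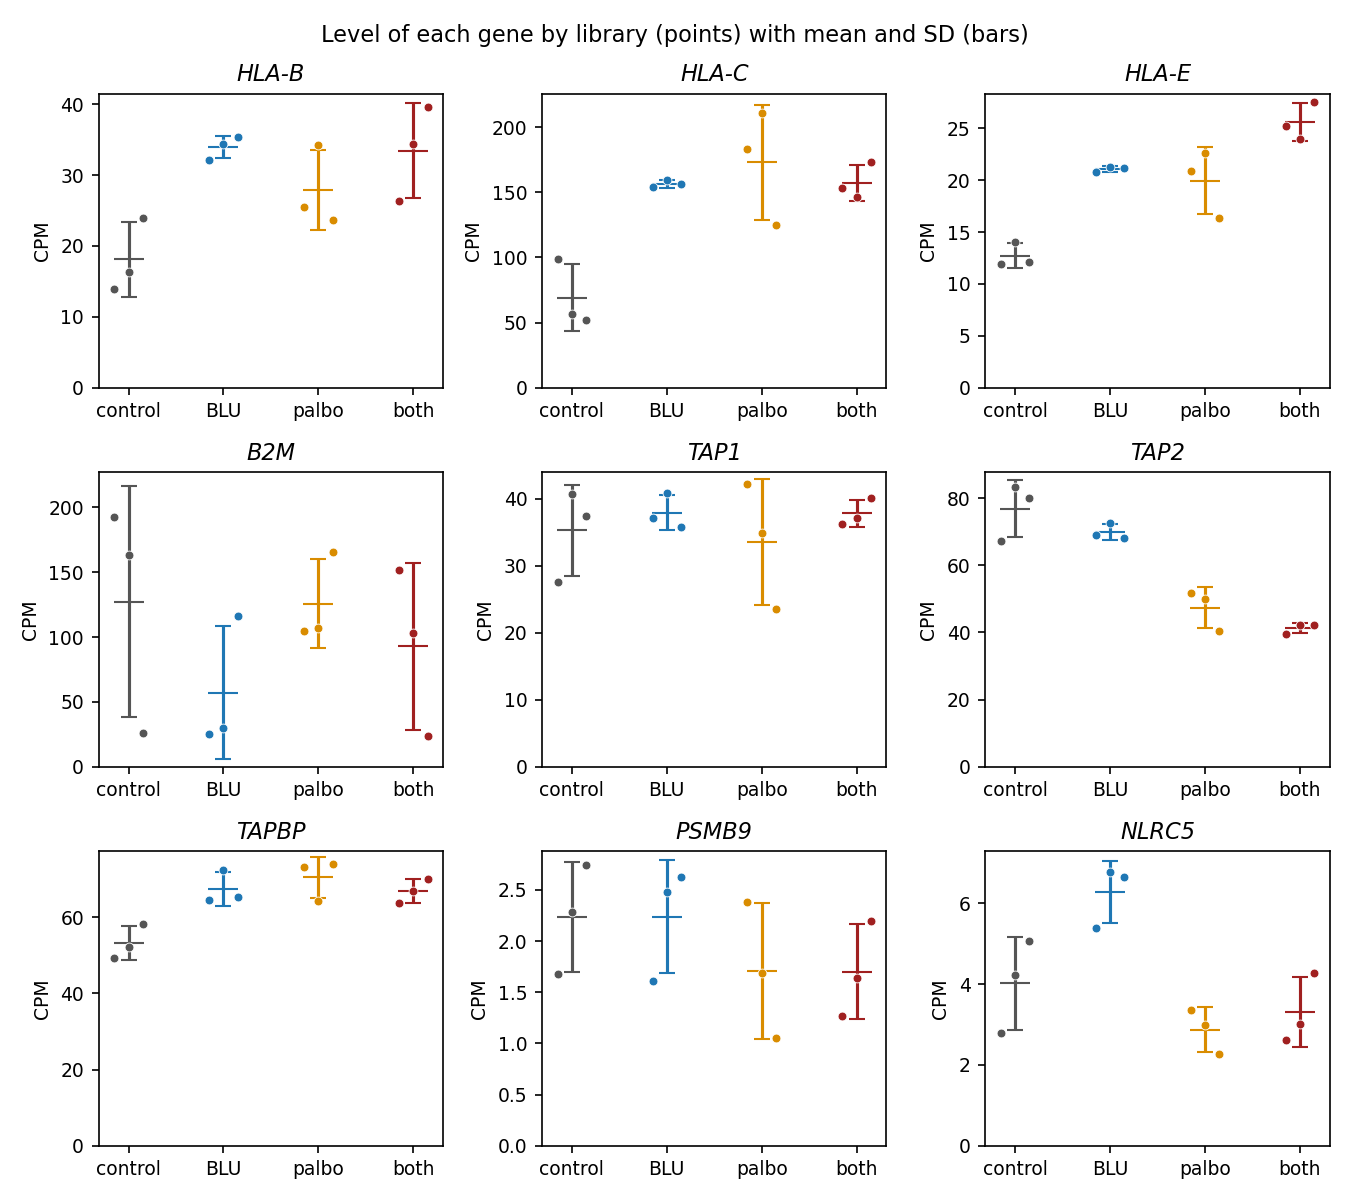
Level of each of the 9 genes in CPM (y axis, a separate scale from 0 for each gene) in control, BLU9931 (BLU), palbociclib (palbo) and combination (both) libraries. Points are libraries 1 to 3 from left to right, horizontal marks are means and bars are SD over the 3. HLA-C, HLA-E and TAPBP sat above control in every treated library, TAP2 sat below control in the palbociclib and combination libraries, and B2M varied widely inside the groups.

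HLA-C (ENSG00000204525) lies on the minus strand of chromosome 6 at 31268749 to 31272130 on GRCh38. Control libraries 1, 2 and 3 held 99.1, 56.4 and 52.1 CPM. The BLU9931 libraries held 154, 160 and 156 CPM, the palbociclib libraries 183, 211 and 125 CPM, and the combination libraries 153, 147 and 173 CPM. No treated library reached down to the highest control library. Against control the level of HLA-C was 2.50 times as high under palbociclib, a log2 change of 1.32 ± 0.24 (SE, n = 3 per group, edgeR adjusted p = 0.00267). Under the combination the log2 change was 1.19 ± 0.24 (edgeR adjusted p = 0.00292). Under BLU9931 it was 1.18 ± 0.24 and did not pass (edgeR adjusted p = 0.0734). That call turned on 1 library: without control 1 the BLU9931 difference in HLA-C was 1.53 with an adjusted p of 0.0233, and without palbociclib 3 it was 1.18 with an adjusted p of 0.0239. With the GC adjustment the HLA-C difference was 0.69 under BLU9931, 1.04 under palbociclib, which still passed, and 0.80 under the combination, which no longer did (edgeR adjusted p = 0.0753).

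HLA-B (ENSG00000234745) lies on the minus strand of chromosome 6. Its row in the table spans 31269491 to 31357188, which takes in most of HLA-C. Control libraries held 13.96, 16.3 and 23.99 CPM, BLU9931 libraries 32.2, 34.4 and 35.3 CPM, palbociclib libraries 25.5, 34.3 and 23.7 CPM, and combination libraries 26.3, 34.3 and 39.7 CPM. The BLU9931 and combination libraries all lay above control, and the lowest palbociclib library lay just under the highest control library. HLA-B was 1.85 times as high under the combination as in control, a log2 change of 0.89 ± 0.22 (edgeR adjusted p = 0.00976). The BLU9931 difference was about as large, 0.91 ± 0.22, with an unadjusted p of 0.00157 beside 0.00185 for the combination, and did not pass after adjustment over all genes (edgeR adjusted p = 0.131). The palbociclib difference was 0.62 ± 0.22 (edgeR adjusted p = 0.0678). Without combination 3 the HLA-B call under the combination was lost at 0.72 (adjusted p = 0.0521). The palbociclib call was gained without control 3, at 0.87, or without palbociclib 3, at 0.72. With the GC adjustment it also passed, at 0.54.

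HLA-B and HLA-C are close copies, and the HLA alleles of H520 may differ from the reference, so the counting can move reads between the pair. Their summed counts changed by 1.13 under BLU9931, which did not pass, by 1.20 under palbociclib and by 1.13 under the combination, both of which passed. The sum of all 18 HLA class I genes and pseudogenes in the table changed by 0.57 under BLU9931, 0.92 under palbociclib and 0.85 under the combination on the log2 scale, and the last 2 of these passed. Per length, HLA-C exceeded HLA-B in every library, and the log2 ratio of their TPM values was 1.41 ± 0.66 in control, 1.88 ± 0.04 under BLU9931, 2.25 ± 0.22 under palbociclib and 1.94 ± 0.20 under the combination (SD, n = 3). Against control the exact permutation p of that ratio was 0.4 for BLU9931, 0.2 for palbociclib and 0.3 for the combination, where the smallest possible p is 0.1. Adjusted over the 15 ratio comparisons computed, these exact p-values were 0.5 for palbociclib and 0.545 for the other 2.

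HLA-E (ENSG00000204592) lies on the plus strand of chromosome 6 at 30489467 to 30494205, and no other row of the table overlaps it. Control libraries held 11.9, 14.1 and 12.1 CPM, and BLU9931 libraries 20.8, 21.3 and 21.1 CPM. Palbociclib libraries held 20.9, 22.6 and 16.3 CPM, and combination libraries 25.2, 23.96 and 27.6 CPM. Every treated library lay above control, and every combination library lay above every single-drug library. HLA-E rose 2.01 times under the combination, a log2 change of 1.01 ± 0.14 (edgeR adjusted p = 0.000246), and 1.57 times under palbociclib, a log2 change of 0.65 ± 0.14 (edgeR adjusted p = 0.00703). BLU9931 gave 0.73 ± 0.14 (edgeR adjusted p = 0.0647). That BLU9931 difference passed without palbociclib 3 (adjusted p = 0.0167). With the GC adjustment HLA-E changed by 0.35 under BLU9931, 0.51 under palbociclib and 0.74 under the combination, and the last 2 still passed. The combination was higher than palbociclib by 0.36 (95% interval 0.05 to 0.66, unadjusted p = 0.0245), which did not pass after adjustment by edgeR (adjusted p = 0.226).

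Leukocytes carry much class I RNA, so markers of other cell types were read beside these rises. The 11 leukocyte markers summed to 1.94 to 2.95 CPM in control, 2.003 to 2.84 CPM under BLU9931, 3.09 to 3.39 CPM under palbociclib and 3.98 to 4.68 CPM under the combination. Only LYZ among them had a mean of at least 1 CPM, CD3D and TYROBP had 0 counts in every library, and PTPRC, which marks all leukocytes, reached at most 0.0654 CPM. The 4 endothelial markers summed to 0.31 to 0.45 CPM in control, 0.23 to 0.51 CPM under BLU9931, 1.41 to 2.68 CPM under palbociclib and 1.08 to 2.17 CPM under the combination, with PECAM1 at or near 0. The 6 fibroblast markers, almost all from COL1A1, summed to 4.73 to 7.70 CPM in control, 10.3 to 12.2 CPM under BLU9931 and 3.49 to 6.71 CPM under palbociclib or the combination, with COL3A1 and DCN at or near 0. The part of these low marker levels in the class I values was not tested.

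**Figure D2:**
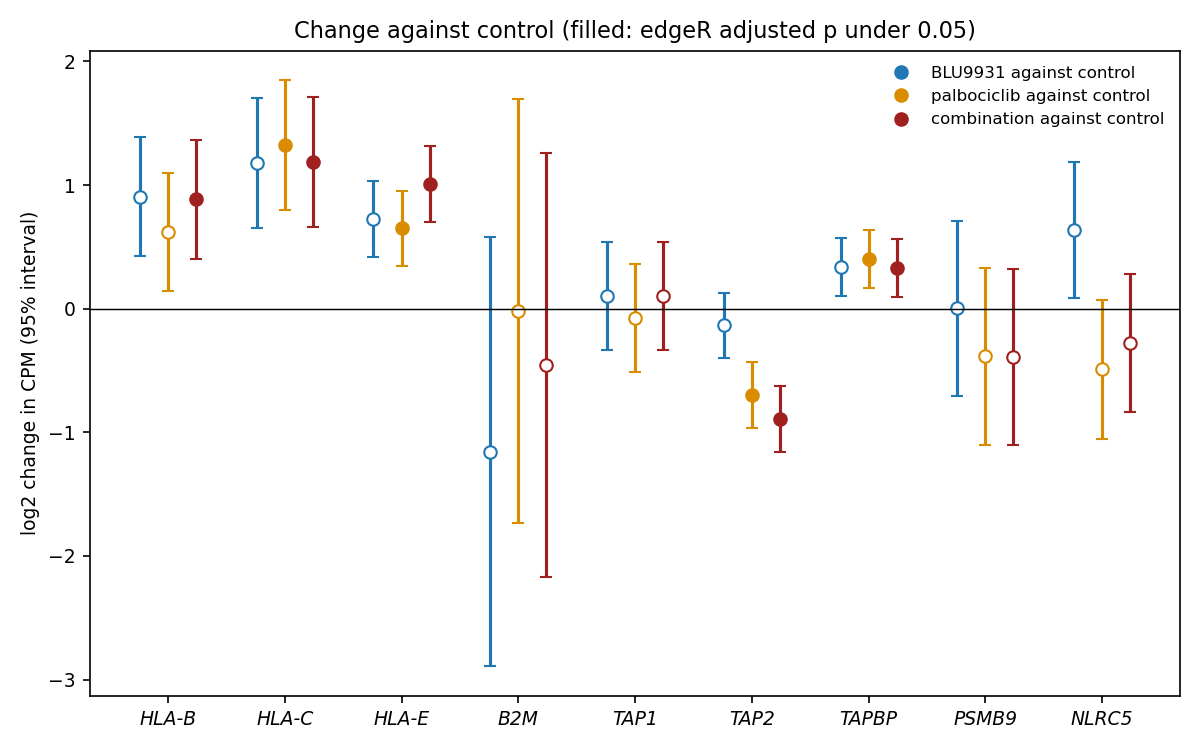
Log2 change of each gene against control (y axis) under BLU9931, palbociclib and the combination, with 95% intervals from the edgeR fit. Filled points passed an adjusted p of 0.05 and open points did not. The 3 comparisons share the same control libraries.

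The promoters of HLA-B and HLA-C are shown because both genes passed as higher than control under the combination, without the GC adjustment. The windows come from RefSeq on GRCh38.p14, on the minus strand and read 5′ to 3′ along the gene, and 7 of the 9 genes had an entry. HLA-E and NLRC5 were not matched. Capitals mark AANNGAAA (the core that interferon regulatory factors read) or its reverse complement, TGACG (the core of the X2 box, where CREB and ATF proteins bind), and CCAAT or ATTGG (the box that NF-Y reads). The first line is chr6:31272136-31272292 and the second is chr6:31357223-31357342.
HLA-C: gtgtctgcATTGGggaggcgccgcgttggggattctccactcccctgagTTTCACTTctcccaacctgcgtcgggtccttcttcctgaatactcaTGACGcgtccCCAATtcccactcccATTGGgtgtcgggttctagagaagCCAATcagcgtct
HLA-B: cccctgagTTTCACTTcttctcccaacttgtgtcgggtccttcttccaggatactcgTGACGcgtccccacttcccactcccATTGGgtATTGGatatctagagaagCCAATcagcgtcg
Over their windows of 250 bases upstream of the start, 226 of 246 aligned bases (91.9%) were identical between HLA-B and HLA-C. Each had 1 match to the interferon core, starting 155 bases upstream in HLA-B and 151 bases upstream in HLA-C. Each also had 1 TGACG, 106 and 105 bases upstream, and HLA-B had 3 and HLA-C 4 CCAAT boxes. Across 35116 promoter windows of that length, on both strands, 20.3% held AANNGAAA, 21.2% held TGACG and 32.0% held CCAAT. A match is a description of the letters and not evidence of binding in H520.

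The interferon core was also found in the windows of TAP2, TAP1, TAPBP and B2M, as a pair of overlapping matches in each. TAP1 has a pair of windows in the table, for different starts, and the other held 0 matches. The stretches are chr6:32838785-32838804 for TAP2, chr6:32853822-32853841 for TAP1, chr6:33314080-33314099 for TAPBP, all on the minus strand, and chr15:44711372-44711391 for B2M on the plus strand. They are shown because these genes carry the same core and differed in their changes, with the matching bases in capitals.
TAP2: gggAAGCGAAAGCGAAAgct
TAP1: cgcTTTCGATTTCGCTTtcc
TAPBP: ggaAAGTGAAAGTGAAAgga
B2M: agaAAAGGAAACTGAAAacg
TAP2 fell, TAPBP rose slightly, and TAP1 and B2M passed no test. The PSMB9 window held no match to the core, and 1 match each to TGACG and CCAAT. The starts of TAP1 and PSMB9 are 487 bases apart on opposite strands. The pair of matches shown for TAP1 lies between those starts, outside the 250 bases of the PSMB9 window. The lack of a match in that window thus does not set PSMB9 apart from TAP1. The windows of TAP1, TAPBP and PSMB9 lie wholly inside the deposited spans of those genes. Their bases are thus upstream of the RefSeq start used and not of every annotated start.

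B2M (ENSG00000166710), the light chain shared by all class I molecules, lies on the plus strand of chromosome 15 at 44711477 to 44718877. Control libraries held 193, 163 and 25.9 CPM, BLU9931 libraries 25.3, 29.8 and 116 CPM, palbociclib libraries 104, 107 and 166 CPM, and combination libraries 152, 103 and 23.9 CPM. The groups overlapped throughout, and 4 of the 12 libraries, namely control 3, BLU9931 1, BLU9931 2 and combination 3, were under 30 CPM while all others were above 100. The replicates of B2M differed by 7.44 times in control, 4.60 times under BLU9931, 1.59 times under palbociclib and 6.36 times under the combination. Of 4469 genes averaging 50 CPM or more, 69 (1.54%) differed by over 4 times between replicates in at least 1 group, and 12, B2M among them, did so in 3 or more.

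The same 4 libraries stood apart in a second quantity. The length implied by the count of B2M over its deposited FPKM was 1528 bases in control 3, 1305 and 1303 bases in BLU9931 1 and 2, and 1534 bases in combination 3. In the other 8 libraries it was between 976 and 1179 bases. A varying implied length was not particular to B2M. It ran from 4287 bases (BLU9931 1) to 6740 bases (BLU9931 3) for TAP2. For NLRC5 it ran from 2120 bases (control 1) to 4134 bases (palbociclib 1). These lengths enter the TPM and FPKM values of those genes. The deposited TPM of B2M ranged from 36.2 to 439. The start and end of B2M in the table also differ from those of GENCODE 29, the only member for which they do. The log2 change of B2M was -1.16 ± 0.79 under BLU9931 (95% interval -2.89 to 0.58, edgeR adjusted p = 0.466), -0.02 ± 0.78 under palbociclib (interval -1.73 to 1.69) and -0.46 ± 0.78 under the combination (interval -2.17 to 1.26). Each interval holds both a rise and a fall. Leaving out 1 library moved the BLU9931 value of B2M between -2.19 (without BLU9931 3) and -0.73 (without control 1), and the combination value between -1.01 (without combination 1) and -0.03 (without combination 3).

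**Figure D3:**
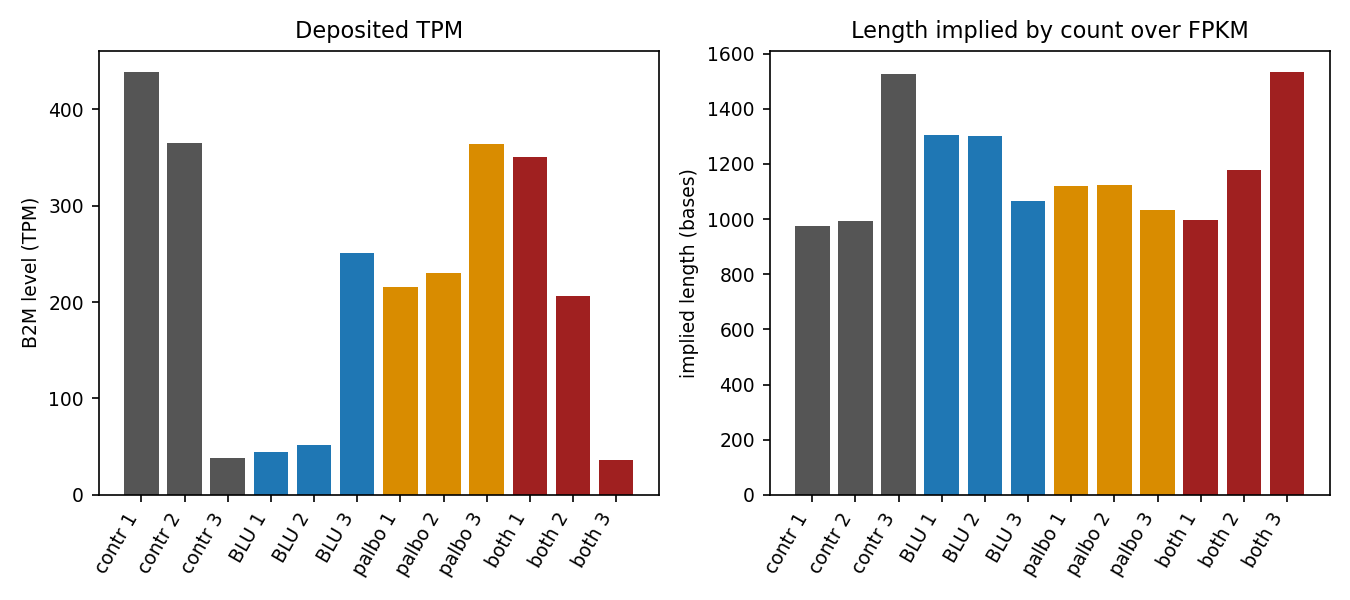
Deposited TPM of B2M (left) and the length in bases implied by its count over its FPKM (right) in each of the 12 libraries, coloured by group (contr, control; BLU, BLU9931; palbo, palbociclib; both, combination). Control 3, BLU9931 1 and 2 and combination 3 have the lowest levels, from 36.2 to 51.7 TPM, and the longest implied lengths, from 1303 to 1534 bases.

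Of the subunits of the peptide transporter, TAP2 passed the test and TAP1 did not. TAP2 (ENSG00000204267) lies on the minus strand of chromosome 6 at 32821833 to 32838780. Control libraries held 67.1, 83.1 and 80.1 CPM, BLU9931 libraries 69.0, 72.7 and 68.1 CPM, palbociclib libraries 51.8, 49.8 and 40.5 CPM, and combination libraries 39.7, 42.1 and 42.2 CPM. All palbociclib and combination libraries lay below all control and BLU9931 libraries. TAP2 fell by 0.70 on the log2 scale under palbociclib (SE 0.12, edgeR adjusted p = 0.00211) and by 0.89 under the combination (SE 0.12, edgeR adjusted p = 0.000217). Under BLU9931 the difference was -0.14 ± 0.12 (edgeR adjusted p = 0.573). The combination was also lower than BLU9931 alone, by a log2 change of -0.76 ± 0.12 (edgeR adjusted p = 0.000809). In bulk RNA, less TAP2 RNA in each cell and fewer cells that carry it cannot be told apart. Another protein-coding row on the same strand, AL669918.1, spans TAP2, and reads of the pair cannot be told apart.

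TAP1 (ENSG00000168394) lies on the minus strand of chromosome 6 at 32845209 to 32853978. Control libraries held 27.6, 40.7 and 37.4 CPM, BLU9931 libraries 37.2, 40.8 and 35.8 CPM, palbociclib libraries 42.2, 34.9 and 23.5 CPM, and combination libraries 36.3, 37.1 and 40.1 CPM. The groups overlapped, and the lowest libraries were control 1 and palbociclib 3. The log2 change of TAP1 was 0.11 ± 0.20 under BLU9931, -0.07 ± 0.20 under palbociclib (95% interval -0.51 to 0.37) and 0.10 ± 0.20 under the combination (95% interval -0.34 to 0.54). The log2 ratio of TAP1 to TAP2, per length from the TPM values, was -0.34 ± 0.18 in control, -0.18 ± 0.37 under BLU9931, 0.36 ± 0.27 under palbociclib and 0.60 ± 0.21 under the combination (SD, n = 3). In control the ratio was 0.75, 0.91 and 0.72, and in the combination 1.31, 1.54 and 1.75, so those groups did not overlap. The exact permutation p against control was 0.1 for palbociclib and 0.1 for the combination, the smallest that 3 against 3 libraries can give. Over the 15 ratio comparisons computed, both were 0.5 after Benjamini-Hochberg adjustment of the exact p-values.

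TAPBP (ENSG00000231925) lies on the minus strand of chromosome 6 at 33299694 to 33314387. Control libraries held 49.4, 52.2 and 58.3 CPM, BLU9931 libraries 64.5, 72.5 and 65.3 CPM, palbociclib libraries 73.2, 64.4 and 74.1 CPM, and combination libraries 63.7, 67.0 and 69.9 CPM. Every treated library lay above every control library. TAPBP rose 1.32 times under palbociclib, a log2 change of 0.40 ± 0.11 (edgeR adjusted p = 0.0203), and 1.26 times under the combination, a log2 change of 0.33 ± 0.11 (edgeR adjusted p = 0.0359). BLU9931 gave 0.34 ± 0.11 (edgeR adjusted p = 0.201). These TAPBP calls were the least firm: the palbociclib call was lost without control 1, control 2 or palbociclib 1, and the combination call without control 1, control 2 or any 1 of the BLU9931 or combination libraries, with adjusted p-values up to 0.148. With the GC adjustment the TAPBP change was -0.07 under BLU9931, 0.32 under palbociclib and 0.04 under the combination, and none passed.

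PSMB9 (ENSG00000240065), an inducible subunit of the immunoproteasome, spans 32844136 to 32859585 on the plus strand of chromosome 6 in the table, a row that contains all of TAP1. The annotated RefSeq starts of TAP1 and PSMB9 are 487 bases apart on opposite strands. PSMB9 was among the lowest of the members, with 26 to 97 counts per library. Control libraries held 1.68, 2.28 and 2.75 CPM, BLU9931 libraries 1.61, 2.48 and 2.63 CPM, palbociclib libraries 2.38, 1.69 and 1.05 CPM, and combination libraries 1.27, 1.64 and 2.19 CPM. The groups overlapped, and no change of PSMB9 passed the test. The log2 change of PSMB9 was 0.00 ± 0.32 under BLU9931, -0.38 ± 0.33 under palbociclib and -0.39 ± 0.33 under the combination (95% interval -1.11 to 0.32).

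NLRC5 (ENSG00000140853) lies on the plus strand of chromosome 16 at 56989485 to 57083531 and was also low, with 56 to 200 counts per library. Control libraries held 2.79, 4.22 and 5.07 CPM, BLU9931 libraries 5.39, 6.79 and 6.65 CPM, palbociclib libraries 3.35, 2.99 and 2.263 CPM, and combination libraries 2.63, 3.02 and 4.29 CPM. In CPM the BLU9931 libraries lay above all others, and control overlapped palbociclib and the combination. NLRC5 was lower under the combination than under BLU9931 by a log2 change of -0.92 ± 0.25 (edgeR adjusted p = 0.0199). That call was lost without BLU9931 2, BLU9931 3, combination 1 or combination 2, with adjusted p-values of up to 0.0821. It was also lost on the deposited TPM, where limma gave -0.59 (adjusted p = 0.104), and on FPKM, where it gave -0.46 (adjusted p = 0.0977). By TPM the NLRC5 libraries held 2.92, 4.14 and 5.11 in control and 3.95, 5.27 and 4.34 under BLU9931, so those groups overlapped per length. Against control the change was 0.64 ± 0.25 under BLU9931 (edgeR adjusted p = 0.271), which was 0.14 on TPM, -0.49 ± 0.26 under palbociclib (edgeR adjusted p = 0.209) and -0.28 ± 0.26 under the combination (edgeR adjusted p = 0.438). With the GC adjustment the palbociclib change was -0.54 and passed (edgeR adjusted p = 0.0390). In no drug group did NLRC5 pass as higher than control, while HLA-C and HLA-E did in 2.

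Levels compared per length gave one order in control cells. By TPM, B2M was at 281 ± 213, HLA-C at 82.2 ± 22.4, HLA-B at 30.7 ± 7.1, TAP2 at 28.4 ± 4.9, TAPBP at 28.2 ± 2.5, TAP1 at 22.5 ± 4.4, HLA-E at 9.8 ± 0.9, PSMB9 at 4.8 ± 1.3 and NLRC5 at 4.1 ± 1.1 (SD, n = 3). B2M overlapped HLA-C, since control 3 was at 38.7 TPM for B2M, and HLA-B, TAP2 and TAPBP overlapped among themselves, as did PSMB9 and NLRC5. TAP1 overlapped HLA-B and TAP2, and lay below TAPBP in each control library. HLA-C stood above HLA-B and HLA-E stood below TAP1 in every control library. Under the combination HLA-C was at 200 ± 16 TPM, HLA-B at 52.4 ± 9.9 TPM and HLA-E at 20.7 ± 0.8 TPM, and TAP2 at 16.4 ± 1.8 TPM had dropped below HLA-E in all 3 libraries. In control TAP2 was above HLA-E in all 3.

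The combination was compared with each single drug to see what the second drug added. Against palbociclib 0 members were called, where 3.82% of all genes were. Only HLA-E had an unadjusted p under 0.05, beside 3200 of the 20612 genes tested. DESeq2 called 0 members as well, and 1328 of all genes. Against BLU9931 2 members were called lower, TAP2 and NLRC5, where 13.7% of all genes were, and 0 were called higher. With only these groups in the fit, or without control 1 and palbociclib 3 together, HLA-E was also called, as higher, at 0.26. HLA-C differed between the combination and BLU9931 by 0.01 (95% interval -0.51 to 0.53), and HLA-B by -0.02 (interval -0.50 to 0.46). The interaction asks whether the log2 effect of the pair differs from the sum of the single effects, and 0 members passed, where 1.59% of all genes did. HLA-C came nearest, at -1.31 ± 0.33 (95% interval -2.05 to -0.58, edgeR adjusted p = 0.0869), so the combination lay below the sum of its single-drug differences in the point estimate. The HLA-C interaction passed without control 1, at -1.69 (adjusted p = 0.00672), without palbociclib 3, at -1.50 (adjusted p = 0.0218), and with DESeq2, at -1.33 (adjusted p = 0.00919). TAPBP was the only other member with an unadjusted p under 0.05 there, at -0.42 ± 0.15 (edgeR adjusted p = 0.236).

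**Figure D4:**
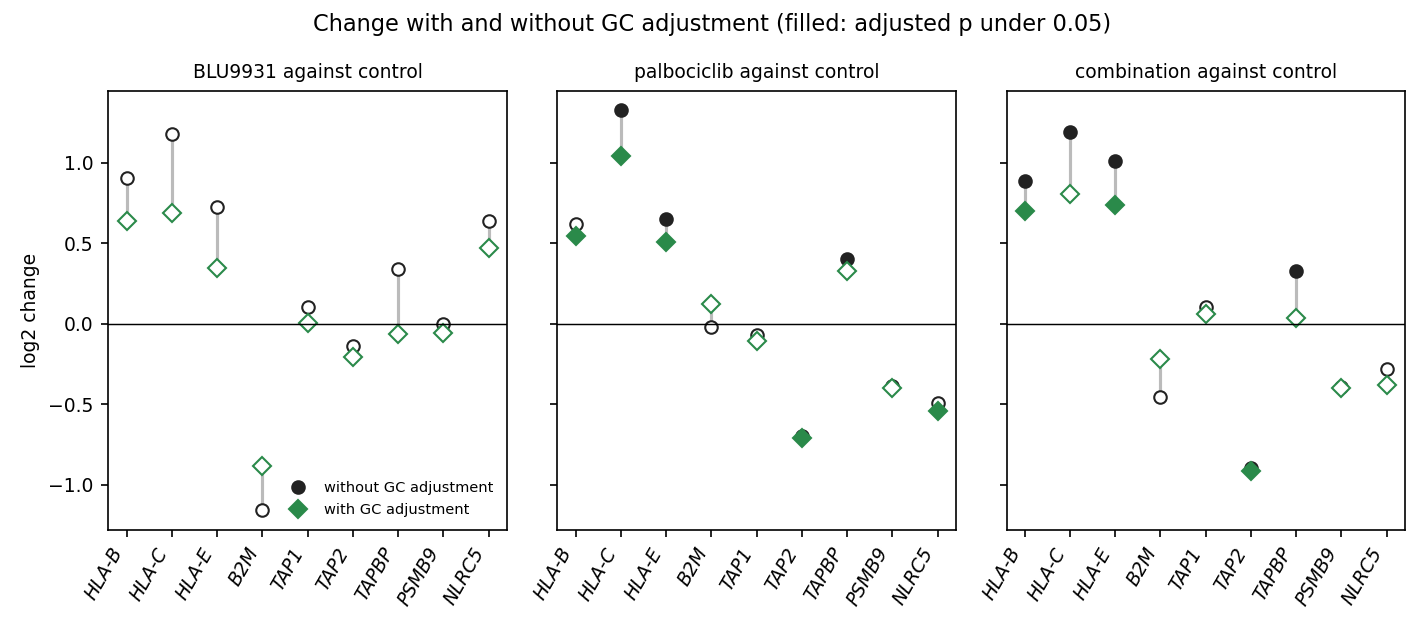
Log2 change of each gene against control (y axis) without GC adjustment (circles) and with it (diamonds), for the 3 comparisons with control. Filled symbols passed an adjusted p of 0.05. The adjustment lowered the changes of HLA-B, HLA-C, HLA-E and TAPBP in all 3 comparisons and left TAP2 at -0.71 and -0.91 under palbociclib and the combination.

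Other genes of the pathway were read from 7 lists. Beside the counts below stand the shares over all genes tested, which were 20.6% called in either direction under palbociclib, and 15.4% higher and 16.3% lower under the combination. Under BLU9931 edgeR called 0 of their 100 tested genes, while 18 had an unadjusted p under 0.05 and DESeq2 called 4. Over the 20612 genes tested, 3347 had an unadjusted p under 0.05 there and DESeq2 called 590. Of 19 tested genes of peptide supply and loading, 1 rose and 2 fell under palbociclib, and 1 rose and 4 fell under the combination, in total a smaller share of the list than of all genes in both comparisons. CANX, the calnexin chaperone that folds new heavy chains, went from 1576 CPM in control to 834 CPM under palbociclib and 795 CPM under the combination, a log2 change of -0.99 ± 0.22 in the latter (edgeR adjusted p = 0.00597). PDIA3, which works with tapasin in the loading complex, and TPP2, a cytosolic peptidase, fell under the combination by 0.34 and 0.65 on the log2 scale. PSMB10, another inducible proteasome subunit, rose from 5.91 to 12.1 CPM under the combination (edgeR adjusted p = 0.0237), where PSMB9 did not pass.

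Of 11 tested class I and class I-like chains other than the members, 2 rose and 3 fell under palbociclib, and 2 rose and 3 fell under the combination. MR1, which presents vitamin B metabolites to MAIT cells, rose from 1.31 CPM in control to 3.10 CPM under the combination (log2 change 1.24, edgeR adjusted p = 0.00189). The genes that fell were ligands of the activating receptor NKG2D. MICB went from 31.1 to 16.7 CPM (log2 change -0.90, edgeR adjusted p = 0.000199), ULBP1 from 4.72 to 2.47 CPM and ULBP3 from 11.02 to 7.64 CPM under the combination. HLA-E, a ligand of an inhibitory receptor, was higher under palbociclib and the combination, where MICB, ULBP1 and ULBP3 were lower. Under BLU9931 every HLA-E library also lay above control, and these ligands were not lower. Their log2 changes there were 0.17, 0.07 and 0.18, and none passed. ULBP2, another NKG2D ligand, changed by 0.83 under palbociclib and 0.11 under the combination and did not pass. It was low and was named after its value was seen. MICA, another NKG2D ligand named after its value was seen, was at 45.6 CPM in control and 46.5 CPM under the combination and did not pass.

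Of 27 tested regulators of class I transcription, 5 rose and 4 fell under palbociclib, and 6 rose and 9 fell under the combination. Under the combination EZH2, the H3K27 methyltransferase of Polycomb, went from 88.5 to 26.6 CPM, the DNA methyltransferase DNMT1 from 228 to 85.9 CPM, and its partner UHRF1 from 108 to 25.5 CPM. These genes were named for their small adjusted p within a mixed list. All 3 are also known as genes of proliferating cells. STAT3 rose from 85.6 to 168 CPM. RFX5, the X1 box binding protein with which NLRC5 acts, rose from 87.0 to 140 CPM under palbociclib and 151 CPM under the combination (log2 change 0.79 ± 0.08, edgeR adjusted p = 3.21e-05), and was named after its value was seen. RFXAP and RFXANK, on the same list and also named after their values were seen, passed in neither group. RFXAP changed by -0.37 under palbociclib and -0.53 under the combination, and RFXANK by 0.03 and 0.35. The median log2 change of the list under the combination was -0.07, beside 0.03 over all genes.

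Of 22 tested genes for interferons, their receptors and RNA sensing, 2 rose and 0 fell under palbociclib, and 6 rose and 1 fell under the combination. The RNA sensor DDX58 (RIG-I) rose from 9.20 to 15.4 CPM and its relative DHX58 from 1.26 to 2.62 CPM under the combination. The kinase JAK1 rose from 40.5 to 58.6 CPM and the RNA receptor TLR3 from 2.01 to 3.27 CPM. The gene that fell was the receptor gene IFNAR2, from 20.2 to 13.7 CPM (edgeR adjusted p = 0.0231). IFNG, IFNL1, IFNL2 and IFNL3 had 0 counts in all 12 libraries, and IFNA1 and IFNB1 had at most 2 counts in any library. IFNE, the other interferon gene listed, was present at 1.66 to 4.89 CPM and passed in no comparison. IFNAR2 and IFNE were named after their values were seen. Of 13 MHC class II genes only 4 could be tested, and edgeR and DESeq2 called 0 in each comparison, with at most 1 at an unadjusted p under 0.05.

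Of 10 genes listed under class I turnover and surface loss, 3 rose and 1 fell under palbociclib, where 20.6% of all genes were called. Under the combination 5 rose and 0 fell, against 15.4% and 16.3% of all genes. The list is mixed, and not every gene on it removes class I molecules. Its calls include SPPL3, higher under the combination, and SEC61A1, lower under palbociclib. No direction of effect on class I molecules is read from these counts. SUSD6 and TMEM127, which act together to send class I molecules for degradation, went from 49.8 to 95.8 CPM and from 62.4 to 93.7 CPM under the combination, log2 changes of 0.95 (edgeR adjusted p = 0.000374) and 0.58 (edgeR adjusted p = 0.00313). WWP2, the ubiquitin ligase that works with them, was at 50.6 and 54.1 CPM and did not pass. NBR1, an autophagy receptor that carries class I molecules to the lysosome, rose from 96.4 to 147 CPM, and the ubiquitin ligase RNF5 from 25.9 to 43.0 CPM. Counts of so few genes are given as a description of the list. Surface protein was not measured. Of 7 tested checkpoint ligands, 1 rose under palbociclib, and 1 rose and 1 fell under the combination: NECTIN2 rose from 21.4 to 38.7 CPM and CD274 (PD-L1) fell from 1.31 to 0.38 CPM.

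The genes whose pattern over the 12 libraries was nearest to the median profile of the members were ATPAF2, SF1, ZSCAN22, ATAT1 and BCORL1, of 10882 protein-coding candidates averaging 5 CPM or more. Their root mean square distances from that profile on the log2 scale were 0.09 to 0.10, against 0.15 for TAP1, 0.56 for HLA-C and 1.23 for B2M. TAP1 was the nearest member and B2M the farthest. The profile is a median over members that moved in different directions, TAP1 among them. The distances thus describe nearness to that median and not likeness to the single members.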

How the data were processed

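Poly(A) RNA of H520 cells was sequenced in 12 libraries. Raw counts per gene are as the authors deposited them, per the file headers, and so are the TPM and FPKM values of the same table. Trimmomatic 0.36, StringTie 1.3.3b, HISAT2 2.0 and bedtools 2.26.0 were listed without roles, along with a mouse build, per the submitters' processing notes. The counting mode, strand use and annotation release are not given in the sources used here. Of 58174 gene IDs, 57836 were found in GENCODE 29, 56044 of them with identical start and end, so positions are on GRCh38. Without strand, reads of overlapping genes cannot be told apart. It holds 0 columns from other series.

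Counts were filtered with filterByExpr (20612 genes), scaled by TMM and fitted over the 12 libraries with edgeR 4.0.16 (R 4.3.3; glmQLFit, robust; two-sided quasi-likelihood test; 8 residual degrees of freedom), with Benjamini-Hochberg adjustment over all genes tested and a threshold of 0.05. CPM divide each count by the TMM-scaled library size. Alternatives used limma 3.58.1 on log2(TPM or FPKM + 1) or log2(TPM + 0.1), DESeq2 1.42.0, a GC adjustment of the counts of each library by a natural spline with 5 degrees of freedom, sums of near-identical or overlapping rows, and fits that leave out 1 library. The sum of HLA class I rows was planned. The sums of HLA-B with HLA-C and of TAP1 with PSMB9 were added after seeing the data. On simulated counts for palbociclib against control (20110 genes), 99 genes were changed 1.5-fold and 99 were changed 2-fold. Of these, 3% and 24.2% were recovered, with 3 false calls. The simulation changed far fewer genes than the 4236 called in the data, which makes the adjusted threshold stricter. These shares thus do not give the sensitivity of the test in the data.

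The members and lists were chosen with earlier results of these data known. Named from each list were up to 4 members past the threshold against control, by the smallest adjusted p under the combination, and some results are not reported here. Python 3.11.15 was used for tables and plots. The interval of a level covers only the spread between 3 libraries.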

Additional observations from a re-analysis of the deposited data

How the results depend on the processing

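No call of a member changed direction under any alternative. Of 1329 values for single genes, 1272 kept their side of the threshold, 26 came to pass it and 31 no longer did. Against control, the number of members past the threshold under BLU9931 was 0, and it was 3 with DESeq2, 1 with limma on FPKM, and 2 without control 1 and palbociclib 3 together. Under palbociclib it was 4, and 2 with only the groups compared in the fit, when HLA-E and TAPBP no longer passed. Under the combination it was 5, and 3 with the GC adjustment, when HLA-C and TAPBP no longer passed. For the combination against palbociclib it was 0, and 2 without control 1 and palbociclib 3 together, when HLA-C at -0.33 and TAP2 at -0.30 passed. Against BLU9931 it was 2, and 1 with limma on TPM (pseudocount 1 or 0.1) or FPKM, when NLRC5 no longer passed, and 3 with only the groups compared or without control 1 and palbociclib 3 together, when HLA-E passed as higher. The interaction had 0, and 1 with DESeq2 or without control 1 and palbociclib 3 together. Leaving out 1 library gave 0 to 2 members under BLU9931, 3 to 5 under palbociclib, 3 to 5 under the combination, 0 against palbociclib, 1 to 2 against BLU9931 and 0 to 1 for the interaction.

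Same-numbered libraries showed no shared deviation (18 pairs, r from -0.36 to 0.17, 3 of them over 0.1). These values use deviations from means of 3 libraries and carry the GC pattern of control 1 and palbociclib 3 (r = 0.46 between them). They therefore cannot tell whether the numbers are a pairing. With the replicate number as a block, the combination count went from 5 to 4, since TAPBP was lost (adjusted p = 0.0636). With the block and the GC adjustment together it was 3. Over all genes tested, the counts differed by more than 1.5 times in several settings. Under BLU9931 37 genes passed, against 590 with DESeq2, 632 with the GC adjustment, 2 with the replicate block, and 1 to 396 when 1 library was left out. The cause was not tested. With 1 library left out, the list counts moved by over 1.5 times, for example between 1 and 5 genes of peptide supply under palbociclib, 2 and 8 interferon and sensing genes under the combination, 10 and 20 regulators under the combination, and 0 and 4 turnover genes under palbociclib. The sum of TAP1 and PSMB9 passed in no comparison. Limits are 3 libraries per group, low counts of PSMB9 and NLRC5, and HLA alleles and overlapping rows that the counting may not separate.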
